A study of Mus musculus with 11 samples.

Results

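The genes described here are 10 Eph receptors and ephrins of the mouse, chosen by symbol out of the 52550 genes of the deposited count table. They comprise the EphB receptors Ephb2, Ephb3, Ephb4 and Ephb6, the EphA receptors Epha1, Epha2 and Epha4, and the ephrins Efna1, Efnb1 and Efnb2. All 10 were found in the table and all 10 passed the filter on low counts, beside 15044 tested genes in total. The RNA came from epithelial cells of the colon of RAG1 KO C57BL/6 mice, which lack mature T and B cells. The FFD group (n = 6) received a fiber-free diet and the CD group (n = 5) a control diet with cellulose. Both groups were fed for 4 weeks and then drank dextran sulphate sodium (DSS), a polymer that injures the colonic epithelium, for 5 days. Every mouse thus carried the RAG1 deletion and received DSS, and mice without DSS were not analysed here. Sex and age are not given in the labels. The comparison asks whether dietary cellulose alters epithelial gene expression during colitis.

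Eph receptors are receptor tyrosine kinases, and their ligands, the ephrins, are bound to the surface of neighboring cells. Ephrins of the A class are held in the membrane by a lipid anchor and mainly bind EphA receptors, whereas ephrins of the B class span the membrane and mainly bind EphB receptors. Binding signals into both cells and often leads to repulsion between them. In the intestine of the mouse, Wnt signals at the base of the crypt maintain Ephb2 and Ephb3, while Efnb1 and Efnb2 are expressed more strongly towards the surface, and this opposition keeps dividing and differentiated cells apart. The libraries are bulk RNA, so position along the crypt was not measured, and fewer cells of a type cannot be told apart from less RNA per cell.

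Total counts ranged from 10374154 to 27973285 in FFD mice and from 20853535 to 28588266 in CD mice, with FFD 4 the shallowest library. Levels are given as CPM, counts scaled to library size, after TMM scaling, which corrects for differences in composition between libraries. A gene was called when the adjusted p of edgeR's quasi-likelihood test over all tested genes was under 0.05. By this rule 36.8% of all tested genes were called, 18.2% higher and 18.6% lower in FFD, and 18.5% had no overlap between the diets (FFD higher in 8.91% and lower in 9.59%).

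The sequence upstream of the start of Ephb3, Ephb4, Efnb1, Efnb2 and Epha2 is shown because these members carried the largest called differences. The windows are from the RefSeq table of GRCm38.p6, 5′ to 3′ on the strand of the gene, and are printed only ahead of the annotated starts. All 10 members had a window in that table. The windows of 300 bases were searched on both strands for the word CTTTGAA, its variant CTTTGAT, the related word CTTTGTA and its variant CTTTGTT, cores bound by the TCF and LEF factors of the Wnt pathway. These 4 words have the same length, so no 2 of them can match at the same place on a strand. Capitals mark the only match among the members.
Ephb3, chr16:21204545-21204754, plus strand: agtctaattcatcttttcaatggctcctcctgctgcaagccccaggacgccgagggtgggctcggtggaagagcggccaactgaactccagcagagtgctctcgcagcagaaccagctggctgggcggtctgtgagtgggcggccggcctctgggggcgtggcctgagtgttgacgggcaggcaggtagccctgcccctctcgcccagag
Ephb4, chr5:137349859-137350108, plus strand: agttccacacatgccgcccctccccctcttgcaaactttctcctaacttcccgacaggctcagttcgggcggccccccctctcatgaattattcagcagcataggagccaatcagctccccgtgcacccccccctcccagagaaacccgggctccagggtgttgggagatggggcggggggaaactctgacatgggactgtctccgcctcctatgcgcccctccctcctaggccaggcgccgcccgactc
Efnb1, chrX:99135811-99136060, plus strand: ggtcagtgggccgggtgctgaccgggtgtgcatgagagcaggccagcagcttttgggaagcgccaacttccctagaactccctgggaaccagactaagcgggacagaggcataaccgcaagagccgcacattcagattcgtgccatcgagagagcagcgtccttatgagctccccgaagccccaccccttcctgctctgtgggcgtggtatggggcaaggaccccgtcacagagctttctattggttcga
Efnb2, chr8:8661243-8661492, minus strand: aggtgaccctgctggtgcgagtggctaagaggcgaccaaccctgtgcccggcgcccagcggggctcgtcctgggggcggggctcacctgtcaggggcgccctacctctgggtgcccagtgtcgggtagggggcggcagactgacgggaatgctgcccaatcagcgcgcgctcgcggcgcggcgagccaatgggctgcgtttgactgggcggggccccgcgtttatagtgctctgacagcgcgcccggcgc
Epha2, chr4:141300971-141301220, plus strand: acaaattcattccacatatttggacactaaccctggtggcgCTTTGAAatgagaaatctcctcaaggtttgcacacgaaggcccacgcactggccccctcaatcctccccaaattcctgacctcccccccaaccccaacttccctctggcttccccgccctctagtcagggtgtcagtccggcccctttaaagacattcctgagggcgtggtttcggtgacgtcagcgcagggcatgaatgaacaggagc

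One of the words occurred in 1 of the 11 windows of the members (9.09%), against 5544 of all 32851 windows of the table (16.88%). The match was CTTTGAA in Epha2, 209 bases before the start on the strand of the gene. None of these words was found in the windows of Ephb2 and Ephb3, which concerns only the letters of these short windows. The GC content was 72.3% for Efnb2, 66.7% for Ephb3, 64.7% for Ephb4, 59.7% for Efnb1 and 54.7% for Epha2, and the median of all windows was 52.7%.

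FFD mice had lower levels of the receptors Ephb3 and Ephb4 and higher levels of Epha1, Epha2 and the ephrins Efna1, Efnb1 and Efnb2. Thus 5 of the 10 members were called higher and 2 lower, beside the 18.2% and 18.6% of all tested genes. Ephb2, Ephb6 and Epha4 did not pass the test. The median log2 fold change of the 10 members was 0.33, against -0.03 over all tested genes.

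**Figure D1:**
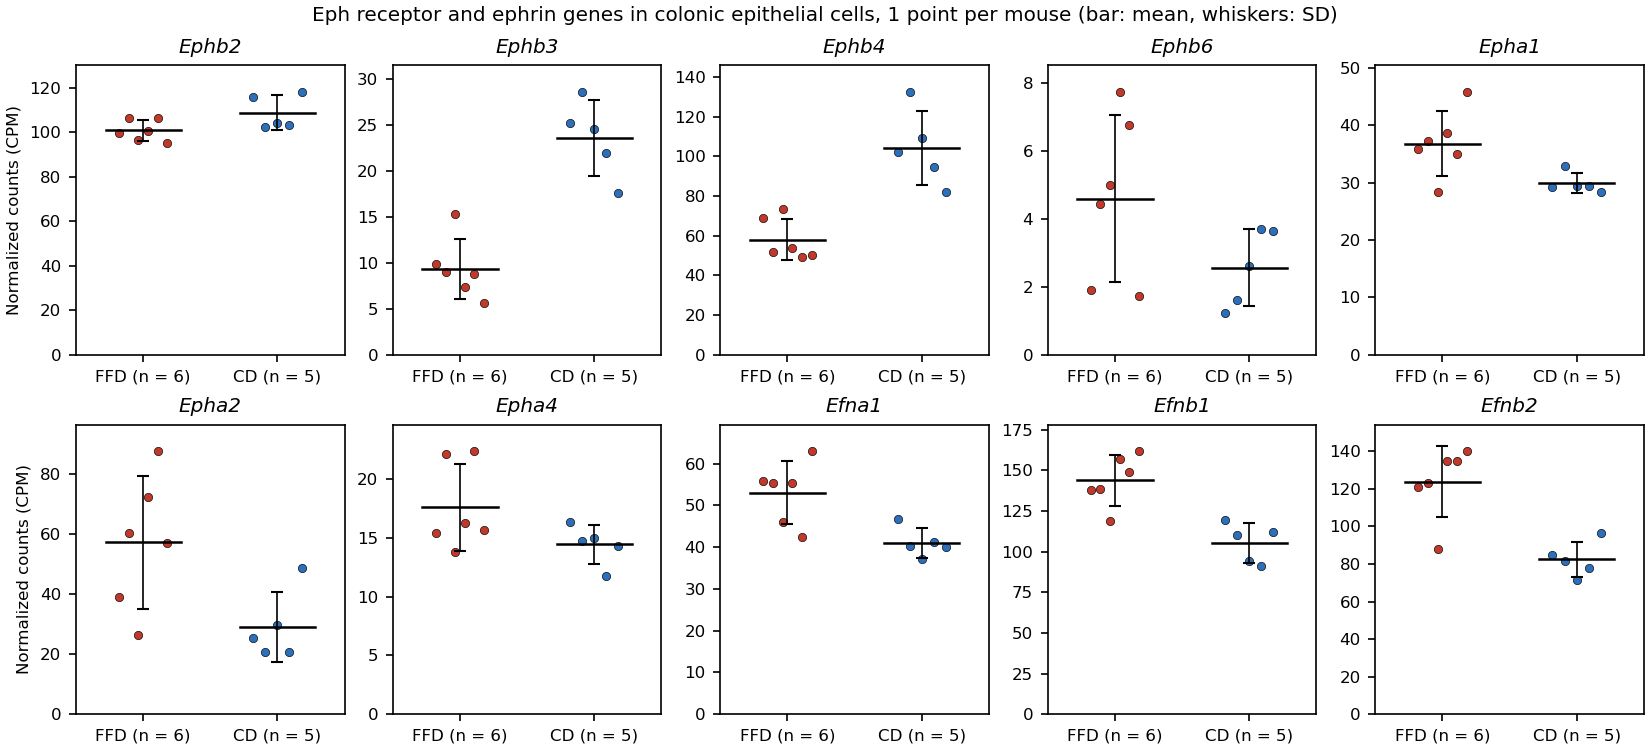
Levels in CPM of the 10 members in each mouse, 1 panel per gene on its own linear scale from 0, with FFD (n = 6) left of CD (n = 5), points as mice, and bars as mean and SD. Ephb3 and Ephb4 show no overlap between the diets, and FFD 3 is the FFD mouse nearest to the CD mice in 6 of the 7 called members.

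Ephb3 is a receptor of the crypt base that binds ephrins of the B class (chromosome 16, 21204755 to 21223305 of GRCm38, plus strand). The level of Ephb3 in FFD mice had a lowest, median and highest value of 5.69, 8.93 and 15.3 CPM, and the 5 CD mice had 25.1, 28.6, 24.6, 21.9 and 17.6 CPM. Every FFD mouse was below every CD mouse, and FFD 3 and CD 5 lay closest to each other. Ephb3 averaged 9.34 ± 3.27 CPM in FFD and 23.6 ± 4.09 CPM in CD mice (SD, n = 6 and n = 5), a log2 fold change of -1.32 ± 0.20 (SE, edgeR quasi-likelihood test, adjusted p = 0.0011).

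Ephb4 is the receptor for ephrin-B2 and is best known from veins, where its partner marks arteries (chromosome 5, 137350109 to 137378669, plus strand). The level of Ephb4 in FFD mice had a lowest, median and highest value of 49.4, 52.9 and 73.3 CPM, against 102, 133, 109, 94.8 and 82.1 CPM in the CD mice. As for Ephb3, the diets did not overlap, with FFD 3 the highest FFD mouse and CD 5 the lowest CD mouse. Ephb4 averaged 58.0 ± 10.4 CPM in FFD and 104 ± 18.8 CPM in CD mice, and its log2 fold change was -0.84 ± 0.13 (SE, edgeR, adjusted p = 0.0012). Among all tested genes, 9.59% had no overlap with FFD lower, and Ephb3 and Ephb4 ranked 242nd and 297th by p. Of the exon bases of Ephb4, 33 of 4640 overlap Zan on the opposite strand.

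Since Ephb4 is also an endothelial gene, endothelial markers were examined beside it. Of 20 markers, 7 passed the filter on low counts and 0 of these were called by edgeR, DESeq2 or limma-voom. Over all tested genes edgeR called 36.8%. At an unadjusted p under 0.05 by edgeR 3 were lower in FFD and 0 higher, namely Vwf (log2 fold change -0.51), Esam (-0.91) and Egfl7 (-0.66). The summed level of the 20 markers was 6.65 to 10.5 CPM in FFD and 7.99 to 13.6 CPM in CD mice. The junction gene Cdh5 had 10 counts over all FFD and 23 over all CD mice, Pecam1 averaged 1.48 and 1.69 CPM in FFD and CD mice, and the endothelial factors Sox17 and Sox18 were at 0 counts. The part of endothelial cells in the difference of Ephb4 was not tested.

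Ephb2 is the second receptor of the crypt base (chromosome 4, 136647539 to 136835988, minus strand). The level of Ephb2 in FFD mice had a lowest, median and highest value of 95.3, 100.3 and 107 CPM, against 116, 102, 104, 103 and 118 CPM in the CD mice. The diets overlapped, although 4 of the 6 FFD mice were below the lowest CD mouse. Ephb2 averaged 101 ± 4.71 CPM in FFD and 109 ± 7.68 CPM in CD mice, and its log2 fold change of -0.11 (95% interval -0.24 to 0.02, edgeR, adjusted p = 0.17) did not pass. Without TMM, which moved the median log2 fold change of all genes to -0.19, Ephb2 was called at -0.26 (edgeR, adjusted p = 0.0048). The coefficient of variation of Ephb2 was 4.67% in FFD and 7.05% in CD mice, the lowest of the 10 members in FFD, while Epha1 had the lowest in CD mice at 5.90%.

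Ephb6 lacks kinase activity and acts through other receptors (chromosome 6, 41605482 to 41620509, plus strand). The level of Ephb6 in FFD mice had a lowest, median and highest value of 1.73, 4.73 and 7.76 CPM, against 1.23, 1.62, 2.62, 3.71 and 3.65 CPM in the CD mice. The diets overlapped, and the log2 fold change of 0.82 (95% interval -0.06 to 1.70, edgeR, adjusted p = 0.13) did not pass. Ephb6 had between 31 and 169 counts per mouse and was the most variable member, with a coefficient of variation of 53.6% in FFD and 44.2% in CD mice.

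Among the EphA receptors, Epha2 binds ephrin-A1 and is widely expressed in epithelia (chromosome 4, 141301240 to 141329384, plus strand). The level of Epha2 in FFD mice had a lowest, median and highest value of 26.5, 58.7 and 87.8 CPM, against 25.5, 20.6, 29.6, 20.7 and 48.6 CPM in the CD mice. The FFD mice other than FFD 1 and FFD 3 lay above the highest CD mouse, CD 5, so the diets overlapped. Epha2 averaged 57.2 ± 22.1 CPM in FFD and 29.01 ± 11.6 CPM in CD mice, a log2 fold change of 0.98 ± 0.29 (SE, edgeR, adjusted p = 0.021). Without CD 4 the call was lost (log2 fold change 0.88, edgeR, adjusted p = 0.054).

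Epha1, an epithelial receptor for A class ephrins (chromosome 6, 42358487 to 42373268, minus strand), differed less. The level of Epha1 in FFD mice had a lowest, median and highest value of 28.3, 36.5 and 45.8 CPM, against 29.3, 32.9, 29.4, 29.4 and 28.4 CPM in the CD mice. While 5 FFD mice were above all CD mice, FFD 3 was below all of them. Epha1 averaged 36.8 ± 5.69 CPM in FFD and 29.9 ± 1.76 CPM in CD mice, and its log2 fold change of 0.30 ± 0.10 (SE, edgeR, adjusted p = 0.033) was lost when any 1 of 7 mice was left out (CD 1, CD 3, CD 4, CD 5, FFD 2, FFD 4 or FFD 6, edgeR, adjusted p 0.052 to 0.065) and without TMM (0.14, edgeR, adjusted p = 0.22). Of the exon bases of Epha1, 236 of 3928 overlap Zyx on the opposite strand, and Zyx itself had a log2 fold change of 0.10 (edgeR, adjusted p = 0.35).

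Epha4 can bind ephrins of both classes (chromosome 1, 77367185 to 77515088, minus strand). The level of Epha4 in FFD mice had a lowest, median and highest value of 13.8, 16.0 and 22.4 CPM, against 16.4, 14.8, 15.03, 11.8 and 14.3 CPM in the CD mice. FFD 2 and FFD 5 were high, the others lay near the CD mice, and the log2 fold change of 0.29 (95% interval -0.01 to 0.59, edgeR, adjusted p = 0.12) did not pass. Without FFD 3 it was called at 0.37 (edgeR, adjusted p = 0.042).

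All 3 ephrins were called higher in FFD mice, although the call of Efna1 was lost without TMM. Efnb1 (chromosome X, 99136130 to 99148991, plus strand) and Efnb2 (chromosome 8, 8617434 to 8661242, minus strand) encode the B class ligands that oppose Ephb2 and Ephb3 in the crypt. The level of Efnb1 in FFD mice had a lowest, median and highest value of 119, 144 and 162 CPM, against 119, 110.0, 94.4, 91.0 and 112 CPM in the CD mice. All FFD mice but FFD 3 were above the highest CD mouse, CD 1. Efnb1 averaged 144 ± 15.6 CPM in FFD and 105 ± 12.1 CPM in CD mice, a log2 fold change of 0.45 ± 0.09 (SE, edgeR, adjusted p = 0.0034).

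The level of Efnb2 in FFD mice had a lowest, median and highest value of 88.0, 129 and 140.2 CPM, against 84.7, 81.8, 71.4, 78.0 and 96.5 CPM in the CD mice. Again all FFD mice but FFD 3 were above the highest CD mouse, here CD 5. Efnb2 averaged 124 ± 19.0 CPM in FFD and 82.5 ± 9.30 CPM in CD mice, a log2 fold change of 0.58 ± 0.11 (SE, edgeR, adjusted p = 0.0025).

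Efna1 encodes the lipid-anchored ephrin-A1, a ligand of Epha2 (chromosome 3, 89271733 to 89281142, minus strand). The level of Efna1 in FFD mice had a lowest, median and highest value of 42.5, 55.4 and 63.1 CPM, against 46.9, 40.2, 37.1, 41.1 and 40.1 CPM in the CD mice. FFD 5 and FFD 3 fell within the range of the CD mice, whose highest was CD 1, and the other 4 FFD mice lay above it. Efna1 averaged 53.0 ± 7.51 CPM in FFD and 41.1 ± 3.57 CPM in CD mice, a log2 fold change of 0.37 ± 0.10 (SE, edgeR, adjusted p = 0.011). Without TMM the value was 0.21 (edgeR, adjusted p = 0.097).

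**Figure D2:**
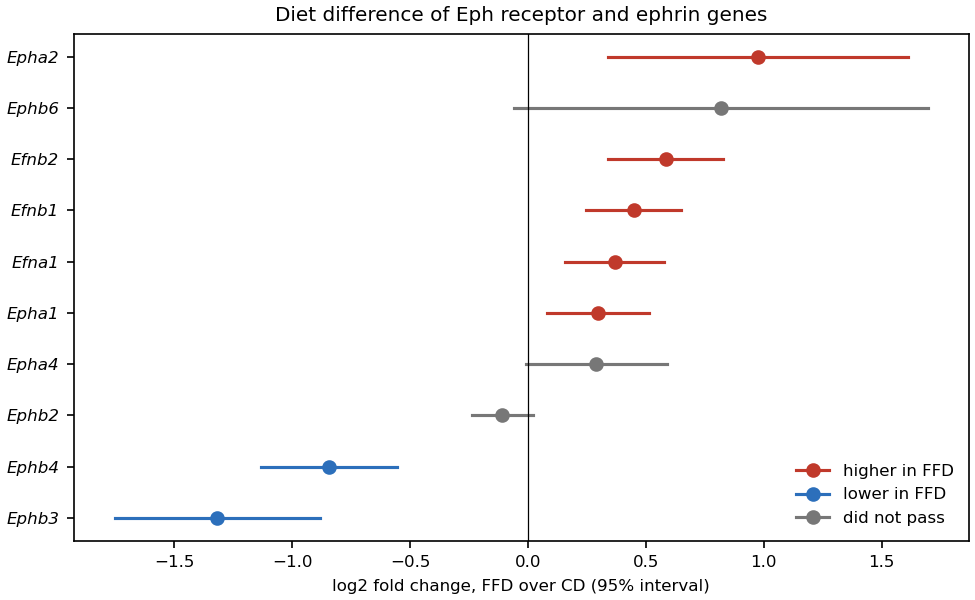
Log2 fold change of FFD over CD for the 10 members from edgeR, points with 95% intervals, in red where called higher in FFD, blue where called lower and grey where the test was not passed, and a vertical line at 0. The intervals of Ephb3 (-1.75 to -0.88) and Ephb4 (-1.13 to -0.56) lie below 0, those of the called ephrins and of Epha1 and Epha2 above it, and those of Ephb2, Ephb6 and Epha4 include it.

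To describe receptors and ligands within the same library, where no scaling enters, ratios of raw counts were taken per mouse. They are given without a test, because the members were chosen with results of these mice known. Ephb3 and Ephb4 were called lower and Efnb1 and Efnb2 higher in the same mice. Ratios of these genes therefore restate those differences and are not a separate result. The summed counts of Ephb2 and Ephb3 over those of Efnb1 and Efnb2 had a lowest, median and highest value of 0.334, 0.415 and 0.542 in FFD and 0.652, 0.693 and 0.778 in CD mice. The diets did not overlap, and the mean log2 ratio differed by -0.77 (FFD minus CD), with a pooled SD within the diets of 0.19. Ephb2 over Efnb1 did not overlap either, at 0.588 to 0.815 in FFD and 0.931 to 1.13 in CD mice. Of these 2 genes, Efnb1 was called higher (log2 fold change 0.45), whereas Ephb2 was not called (-0.11). Ephb3 over Efnb1 was 0.0351 to 0.129 in FFD and 0.157 to 0.260 in CD mice, and Ephb3 over Efnb2 was 0.0406 to 0.174 in FFD and 0.183 to 0.349 in CD mice.

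Ephb4 over its ligand Efnb2 was 0.359 to 0.833 in FFD and 0.850 to 1.62 in CD mice, again without overlap, although FFD 3 and CD 5 were close. The ratio of Ephb3 to Ephb2 had a median of 0.0839 in FFD and 0.216 in CD mice, and here FFD 3 at 0.158 was above CD 5 at 0.149. Epha2 over Efna1 overlapped widely, from 0.577 to 2.07 in FFD and from 0.504 to 1.21 in CD mice.

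**Figure D3:**
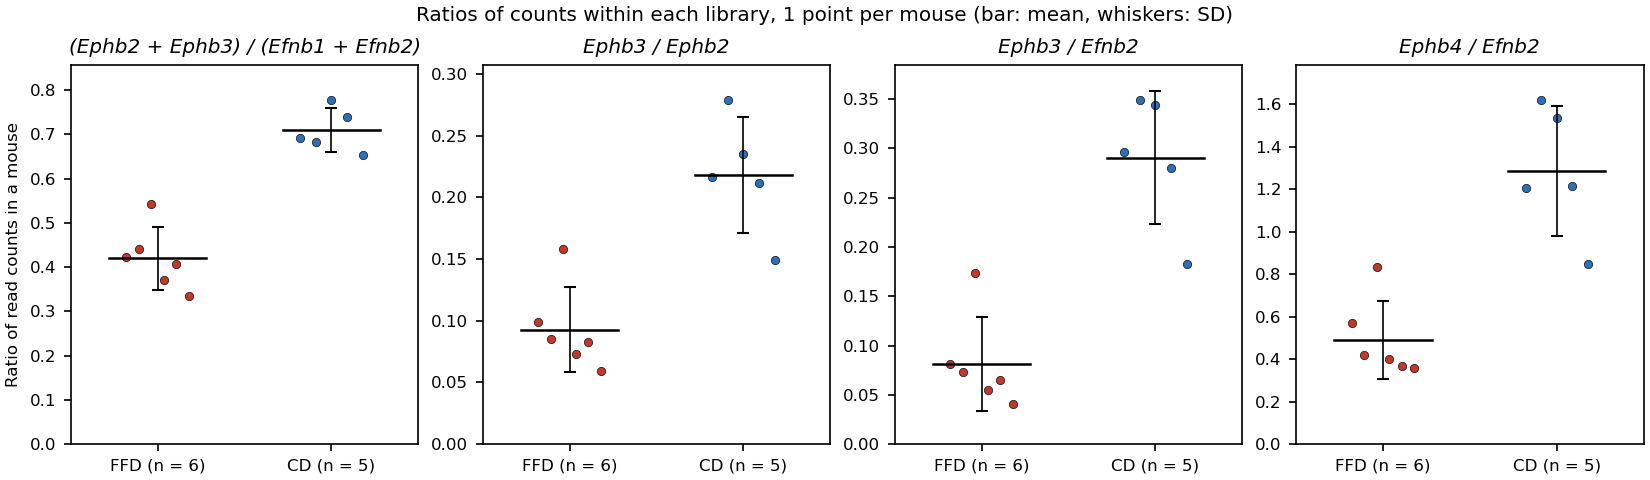
Ratios of raw counts within each library (Ephb2 plus Ephb3 over Efnb1 plus Efnb2, Ephb3 over Ephb2, Ephb3 over Efnb2 and Ephb4 over Efnb2), FFD (n = 6) left of CD (n = 5), points as mice and bars as mean and SD, on linear axes from 0. The ratio of Ephb2 plus Ephb3 to Efnb1 plus Efnb2 is at most 0.542 in FFD and at least 0.652 in CD mice.

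Variation of the members among mice of the same diet was examined for all 45 pairs after the mean of each diet had been subtracted from log2 CPM, with exact permutation within the diets and adjustment over the 45 pairs (n = 11). Efnb1 and Efnb2 gave r = 0.84 (exact permutation p = 0.0016, adjusted 0.037) and rho = 0.89 (exact permutation p = 0.0022, adjusted 0.097). Without FFD 6 and FFD 4, the 2 mice farthest from the median of Efnb1 over both diets, r was 0.80. Ephb3 and Ephb4 gave r = 0.81 (exact permutation p = 0.0012, adjusted 0.037) and rho = 0.78 (exact permutation p = 0.014, adjusted 0.22). Without the same 2 mice, here farthest from the median of Ephb3 over both diets, r was 0.86. These were the only 2 of the 45 pairs that passed after adjustment by r, and 0 passed by rho. The mice left out were chosen before the diet means were subtracted, so FFD 3 was kept in both pairs. Of the FFD mice, FFD 3 had the lowest Efnb1 and Efnb2 and the highest Ephb3 and Ephb4. Dependence of r on FFD 3 was not tested.

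Ephb3 and Efnb2 gave r = -0.85 (exact permutation p = 0.0044, adjusted 0.054) and rho = -0.67 (exact permutation p = 0.047, adjusted 0.32), which did not pass. FFD 3 had the highest Ephb3 and the lowest Efnb2 of the FFD mice, and CD 5 the lowest Ephb3 and the highest Efnb2 of the CD mice. Epha2 and Ephb4 gave r = -0.82 (exact permutation p = 0.0048, adjusted 0.054) and rho = -0.71 (exact permutation p = 0.033, adjusted 0.30). All members of a mouse come from the same library and share its scaling.

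**Figure D4:**
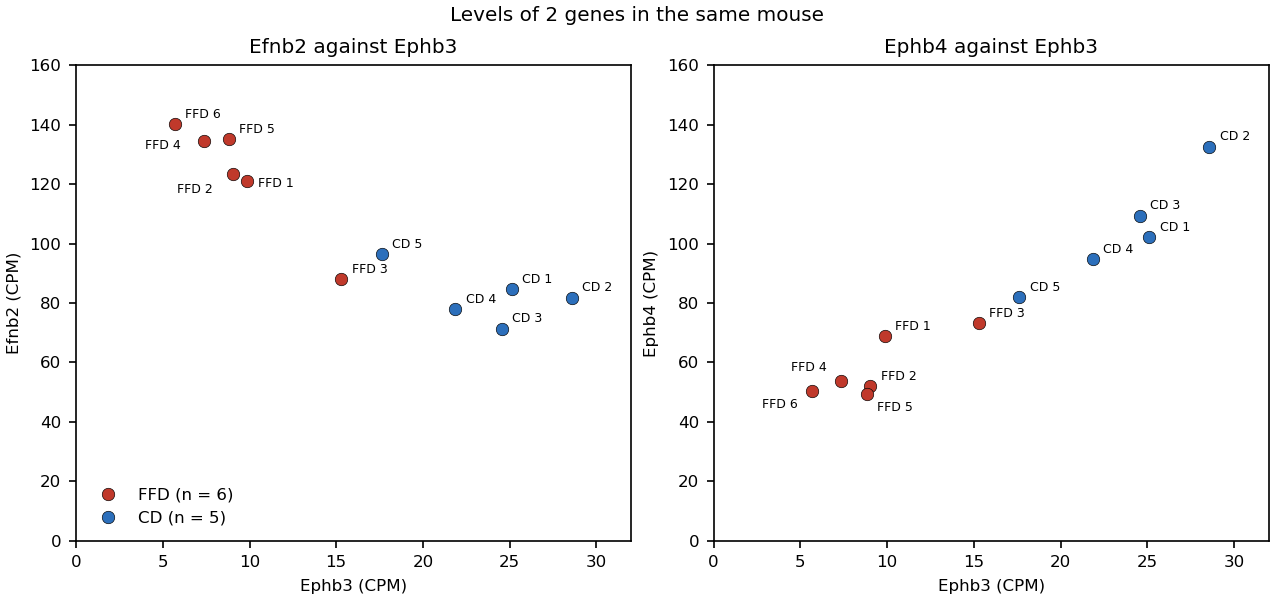
Efnb2 against Ephb3 (left) and Ephb4 against Ephb3 (right) in CPM on linear axes, each point 1 mouse, FFD (n = 6) and CD (n = 5). FFD 3, at 15.3 CPM of Ephb3, and CD 5, at 17.6 CPM, are the mice in which the diets come closest.

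Genes whose levels followed the members most closely were sought among 10053 tested genes of at least 5 CPM on average. Predicted genes, with a Gm number or a symbol ending in Rik, were left out of the search. It ran over the 11 mice after subtraction of the diet means, as a description without a p. The genes named below had the highest r of 10053 genes searched. How high r comes out by chance in such a search was not tested, so these r alone do not show a link to the member. Dependence of these r on single mice was not tested either. Ephb3 was most like Slc25a15 (r = 0.97), Csnk2a2 (r = 0.97) and Lrig1 (r = 0.96). Lrig1, a known inhibitor of ErbB receptors that marks cells of the crypt base, was itself lower in FFD mice (log2 fold change -0.73, edgeR, adjusted p = 0.0026). Slc25a15 was also called lower (-0.23, edgeR, adjusted p = 0.026), and Csnk2a2 did not pass (-0.14, edgeR, adjusted p = 0.090). Efnb2 was most like Cttn (r = 0.96), a regulator of branched actin, Thsd4 (r = 0.96) and Emp1 (r = 0.95). For Efnb1 these were Arhgap27 (r = 0.98), Camta2 (r = 0.96) and Nr3c2, the mineralocorticoid receptor (r = 0.95). For Ephb2 these were Papd4 (r = 0.92), Pigk (r = 0.91) and Slc30a6 (r = 0.90). The genes named for Efnb1 and Efnb2 were called higher in FFD mice, and those named for Ephb2 were not called.

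To compare the genes with each other, CPM were divided by the annotated exon length in kb. This length covers all annotated exons of a gene together. Which transcripts were expressed was not determined, and the order between genes depends on these lengths. Efnb1 had the highest level in both diets, at 41.7 CPM per kb in FFD and 30.5 CPM per kb in CD mice. Ephb4 was 4th in FFD at 12.5 CPM per kb and 2nd in CD at 22.5 CPM per kb, where it overlapped with Efnb1 and with Efna1. In FFD mice the order by mean level was Efnb1, Efna1, Efnb2, Ephb4, Epha2, Epha1, Ephb2, Epha4, Ephb3 and Ephb6, and of the neighbors in this order Efna1 and Efnb2, and Ephb2 and Epha4, had ranges that did not overlap. In CD mice the order was Efnb1, Ephb4, Efna1, Efnb2, Ephb2, Epha1, Epha2, Ephb3, Epha4 and Ephb6. There the neighbors from Efnb1 to Efna1 and those from Ephb2 to Epha2 overlapped, and the others did not. Ephb3 was at 1.41 CPM per kb in FFD and 3.55 CPM per kb in CD mice, below Ephb2 at 8.01 and 8.64 CPM per kb in FFD and CD mice.

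The remaining 12 Eph and ephrin genes of the table had a median level of 0.56 CPM over all mice. Epha3, Epha8 and Epha10 had 83, 8 and 56 counts over all mice and were not tested, which leaves 9 tested genes. Of these 0 were called higher and 1 lower (11.1%) by edgeR, beside 18.2% and 18.6% of all tested genes. The counts were the same by DESeq2, by limma-voom and at an unadjusted p under 0.05 by edgeR. The median log2 fold change of the 9 genes was -0.39. The called gene was Efna4, a further A class ephrin, at 3.11 ± 1.14 CPM in FFD and 6.31 ± 1.67 CPM in CD mice, with no overlap (log2 fold change -0.98 ± 0.27, SE, edgeR, adjusted p = 0.013). Over all tested genes 9.59% had no overlap with FFD lower. Among the A class ephrins, Efna1 was thus called higher (with TMM) and Efna4 lower. Epha5, Epha6, Epha7, Ephb1, Efna2, Efna3, Efna5 and Efnb3 did not pass, with log2 fold changes between -0.60 for Epha5 and 0.28 for Efna3.

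The 60 listed genes of Eph signalling mainly encode kinases, adaptors, small GTPases and their exchange factors, phosphatases and proteases, and include claudins. Of these, 56 were tested. Among them 19 were called higher (33.9%) and 5 lower (8.93%) in FFD mice, beside 18.2% and 18.6% of all tested genes, and the median log2 fold change was 0.12. The 4 with the smallest p were higher, namely Kalrn (1.31) and Arhgef5 (0.68), both exchange factors, the phosphatase Ptprj (0.78) and the kinase Pak1 (0.48). The 5 lower genes, named after their values were seen, were the phosphatase Ptpro (-1.57), the exchange factors Vav3 (-1.08) and Tiam1 (-0.90), the protease Adam12 (-1.12) and the polarity gene Pard6a (-0.47). Without TMM 12 were called higher and 11 lower.

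Genes of the crypt compartments were given as context for the members, beside 18.2% of all tested genes called higher and 18.6% lower. Of 21 tested Wnt target genes of the crypt, 9 were called lower (42.9%) and 3 higher (14.3%), with a median log2 fold change of -0.57. DESeq2 gave 9 lower and 4 higher, and limma-voom 10 lower and 3 higher. At an unadjusted p under 0.05 by edgeR 11 were lower and 4 higher. The 4 with the smallest p, Cdca7 (-0.78), Myc (-0.82), Axin2 (-1.49) and Ptk7 (-0.83), were all lower, whereas the 3 higher genes, named after their values were seen, were Tcf7l2 (0.71), Wif1 (1.15) and Prox1 (0.84). Of 25 genes of dividing cells 21 were called lower and 0 higher by edgeR (25 lower and 0 higher at an unadjusted p under 0.05, 23 and 21 lower and 0 higher by DESeq2 and limma-voom), among them Pcna (-0.54), Uhrf1 (-0.82), Ccne2 (-0.77) and Cdt1 (-0.79). Of 20 genes of surface colonocytes 14 were called higher and 0 lower by edgeR (16 higher and 0 lower at an unadjusted p under 0.05, 15 and 14 higher and 0 lower by DESeq2 and limma-voom), among them the chloride exchanger Slc26a3 (1.34), Clca4a (1.81), Lypd8 (1.18) and Cdhr5 (0.92). The part of these genes' cells in the differences of the members was not tested.

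**Figure D5:**
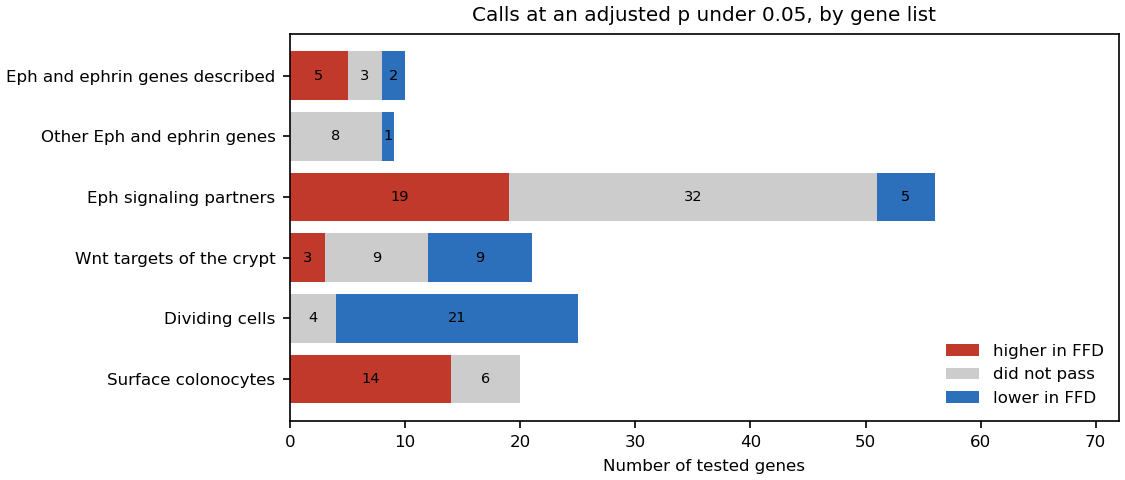
Number of tested genes called higher in FFD (red), not passing (grey) and called lower in FFD (blue) by edgeR, 1 bar per list from 0, for the 10 members and 5 lists. Of the members 5 are higher and 2 lower, of the dividing cell genes 21 of 25 are lower, and of the surface colonocyte genes 14 of 20 are higher.

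The 8 epithelial markers had a median level of 1048 CPM over all mice, and 6 of them were called higher in FFD. Over all tested genes 18.2% were called higher and 18.6% lower. Markers of other cells were examined beside the members. Of 14 macrophage and monocyte markers 4 were called higher (C1qb, Cd14, Mrc1 and Ctss) and 0 lower by edgeR, DESeq2 gave 4 and limma-voom 3 higher and 0 lower, and 6 were higher and 0 lower at an unadjusted p under 0.05. Their summed level, mostly Ctss, was 369 to 519 CPM in FFD and 258 to 334 CPM in CD mice, while the defining marker C1qa averaged 1.43 and 1.35 CPM in FFD and CD mice. Of 5 tested neutrophil markers S100a8, Ly6g and Ltf were called higher by edgeR, and DESeq2 gave 3 and limma-voom 2 higher. The 8 neutrophil markers summed to 73.5 to 286 CPM in FFD and 26.6 to 72.8 CPM in CD mice. Most of this sum was Ly6g, which averaged 153 and 33.5 CPM in FFD and CD mice, while Csf3r averaged 0.795 and 0.699 CPM. Markers of fibroblasts and muscle (of 4 tested, Tagln was called higher by edgeR, and limma-voom called 0) summed to 17.7 to 20.9 CPM in FFD and 14.2 to 18.8 CPM in CD mice. Col1a1 had 13 and 6 counts over all FFD and CD mice. T and B cell markers (of 4 tested, Cd8b1 was called higher) summed to 4.13 to 7.39 CPM in FFD and 6.11 to 8.55 CPM in CD mice, with 10 and 8 counts of Cd3e and 7 and 10 counts of Cd79a over all FFD and CD mice. Of 4 tested glial and neuronal markers Ret was called higher, and Sox10 had 2 counts in all. These genes were named after their values were seen. The part of these cells in the results was not tested. The labels number all FFD samples 2 and all CD samples 1, and any batch or cage tied to this number cannot be told apart from the diet.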

How the data were processed

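Colonic epithelial cells of 6 FFD and 5 CD RAG1 KO mice were analysed, 1 library each. The authors detached the cells with DTT and EDTA, cleaned them over Percoll, mapped the reads to GRCm38 with the Qiagen CLC Workbench and deposited a raw count of reads per gene. FastQC, R 3.5.1 and DESeq2 1.22.2 are named in the submitters' processing notes. Annotation release, handling of multi-mapped reads and strand setting are not given in the sources used, so related or overlapping genes are uncertain to that degree.

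Genes were filtered with filterByExpr (minimum count 10, minimum total 15), scaled by TMM and tested for diet with the quasi-likelihood test of edgeR 4.0.16 in R 4.3.3. Adjustment was by Benjamini-Hochberg over 15044 genes, with a threshold of 0.05. The fit was tested on simulated data. Mice of the same diet differed in their counts beyond sampling noise, with a chi-square of at least 11.1 per degree of freedom for every pair. The mice were bred under specific pathogen-free conditions. Which of them shared a cage is not given in the sources used. The p-values treat each mouse as independent, and mice that shared a cage might not be. Log2 CPM for correlations used a prior count of 2.

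Coordinates and exon lengths are from GENCODE M21 and promoters from RefSeq. The members and lists were chosen with earlier results of these data known. Named are all members, the rest of the family, up to 4 genes with the smallest p per list and the 3 genes most like Ephb2, Ephb3, Efnb1 and Efnb2. Exceptions are given where they occur, and the markers Cdh5, Pecam1, Sox17, Sox18, C1qa, Csf3r, Col1a1 and Cd3e, Cd79a and Sox10 and the neighbor Zyx serve as checks. Alternatives were DESeq2 1.42.0, limma-voom 3.58.1, other scalings and filters, a replicate block and each mouse left out in turn.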

Additional observations from a re-analysis of the deposited data

Results flagged for a closer look

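The levels of the 10 members were searched within each diet for a mouse far from the others, and 2 of 20 groups held one, where chance gives about 1 in 20. Efnb2 was at 88.0 CPM in FFD 3, while the nearest other FFD mouse was at 121 CPM, a gap of 0.633 of the range of the FFD mice. Epha1 was at 32.9 CPM in CD 2, while the nearest other CD mouse was at 29.4 CPM, a gap of 0.769 of the range of the CD mice.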

How the results depend on the processing

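The calls of Ephb3, Ephb4, Efnb1 and Efnb2 remained under all alternatives run, with log2 fold changes of -1.51 to -1.21, -0.99 to -0.73, 0.29 to 0.51 and 0.42 to 0.68. Of 179 values of members under an alternative, 165 kept their direction and side of the threshold, 11 lost the call, 3 gained it and 0 changed sign. The ratio of Ephb2 plus Ephb3 to Efnb1 plus Efnb2 differed by -0.85 to -0.71 (log2) with each mouse left out and by -0.86 per kb of exon. Without TMM the number of members called higher was 3 instead of 5. All genes then gave 1636 higher and 4863 lower calls, against 2740 and 2792, and Eph signalling 12 higher and 11 lower. Without a filter on low counts 3 signalling genes were lower instead of 5. Under a strict filter (5 CPM in at least 5 mice) 0 instead of 1 of the other family genes was called lower, since Efna4 was no longer tested. With each mouse left out in turn, 3 to 6 members were called higher (3 without CD 4) and 2 lower. Of Eph signalling, 16 to 22 genes were higher and 3 to 6 lower (3 without CD 3, CD 4, FFD 5 or FFD 6), and over all genes 2281 to 3086 were higher and 1983 to 2993 lower. The log2 fold change of Epha6, which is not called, was -0.26 and ranged from -0.42 to 0.032 (without CD 4) with each mouse left out. The cause of these changes was not tested.

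The labels number the mice within each diet, and whether equal numbers mark pairs is not given. Deviations from the diet means of mice with the same number correlated at -0.18, -0.28, 0.18, -0.26 and 0.23. Of 5 FFD mice, 2 were most like the CD mouse of their own number. These values cannot decide whether the mice were paired, since the correlation of true pairs is not known. With a replicate block, 1829 of all genes and 3 of Eph signalling were called lower, Ephb6 was called higher (1.0, edgeR, adjusted p = 0.0059) and Epha1 was not called (0.22, edgeR, adjusted p = 0.079). Depth was lowest in FFD 4, at 10374154 counts, and Ephb6 had at most 169 counts in a mouse.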
